A study of Mus musculus with 6 samples.

Results

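The 8 genes described here are a selection of the genes that encode heat shock chaperones of the mouse. They are Hspa8, Hspa5, Hspa9 and Hspa4 of the HSP70 superfamily, Hsp90aa1, Hsp90ab1 and Hsp90b1 of the HSP90 family, and the chaperonin gene Hspd1. They were chosen by name, with earlier results of these data known, out of 22367 protein-coding genes of the annotation used. Their members are the YTHDC1 LACE-seq peaks that lie inside each gene. YTHDC1 is a nuclear protein that reads N6-methyladenosine (m6A) in RNA, and LACE-seq maps where it crosslinks to RNA by reading the ends at which reverse transcription stopped. Peaks were available for 6 libraries: 4 of ASC-48 hr, satellite cells activated in culture for 48 hr, as biological replicates B1 and B2 with technical replicates T1 and T2 each, and 2 of C2C12, an established mouse myoblast line, as replicates 1 and 2. The labels number the C2C12 libraries as biological replicates while the paper calls them technical, so their spread may be technical only. All 6 libraries were labelled WT, were crosslinked by UV and were precipitated with the same YTHDC1 antibody. No input, IgG or RNA-level library was analysed here, so a higher peak number and a higher amount of the RNA cannot be told apart.

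Chaperones bind unfolded or partly folded proteins and use ATP to help them fold, move or be degraded. HSP70 proteins grip short hydrophobic stretches, HSP90 proteins act later on kinases, receptors and other clients, and chaperonins enclose a folding protein in a chamber. Members of both families exist in the cytosol, the endoplasmic reticulum and the mitochondrion, and several are among the most abundant proteins of unstressed cells.

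A peak was assigned to a gene when it lay fully inside it on the deposited strand opposite to the gene, which is the strand of the gene's RNA here. None of the 8 genes held a peak on the other strand in any library. The 8 genes held 2 and 5 peaks in ASC B1 (T1 and T2), 7 and 14 in ASC B2 (T1 and T2), and 85 and 86 in C2C12 replicates 1 and 2. These fell into 127 separate sites, of which 49 were found in both C2C12 libraries, 72 in 1 C2C12 library, and 6 in ASCs without C2C12. Peaks in adjoining bins that did not overlap counted as separate sites. The libraries differed widely in size, with 7925 to 19448 peaks in ASCs and 60540 and 71992 in C2C12. Among peaks on the RNA strand of protein-coding genes, the 8 genes took 0.0934%, 0.168%, 0.25% and 0.201% in the ASC libraries and 0.198% and 0.182% in C2C12. The exact 95% binomial intervals of all 6 shares overlapped, from 0.0113% to 0.337% in ASC B1 T1 and from 0.158% to 0.245% in C2C12 replicate 1. Such overlap is not a test, and a difference between the cell types in this share was not tested. Intervals cover counting error only.

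**Figure D1:**
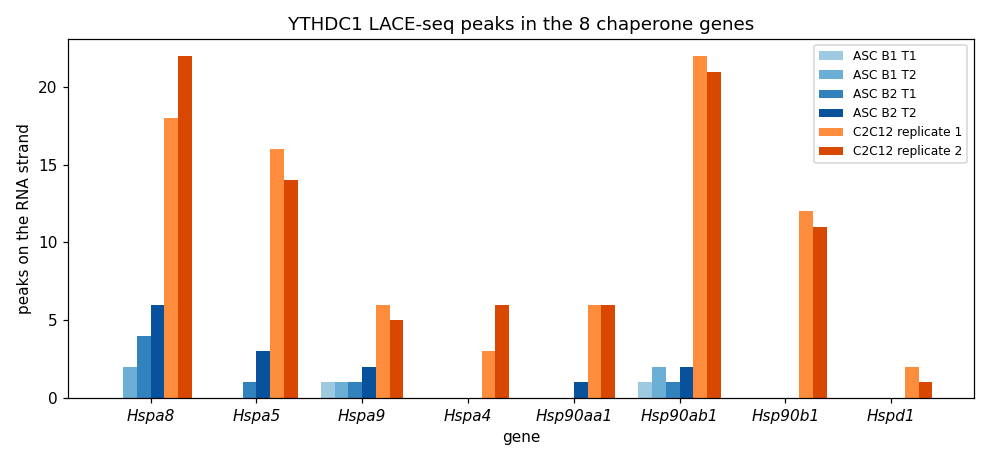
Number of peaks on the RNA strand (y axis) in each of the 8 genes (x axis), 1 bar per library. Hspa8 and Hsp90ab1 held 18 to 22 peaks in the C2C12 libraries, and no gene held more than 6 in an ASC library.

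A C2C12 peak was called shared when a replicate 1 peak overlapped a replicate 2 peak by at least 1 nt. By this measure all 8 genes held a shared peak, where 21.8% of all protein-coding genes did. In exons the count was again 8 of 8, against 16% of all genes, and in introns it was 1 of 8, against 10.7%. Exons of any transcript counted, which left only 61 nt of Hspa8 as intron. Its 3 shared peaks overlapping snoRNA genes lay in introns of its longest coding transcript and counted as exonic. Since the 8 genes were chosen with earlier results of these data known, these contrasts are no test. The 8 genes held 50 shared peaks: 14 each in Hspa8 and Hsp90ab1, 8 in Hsp90b1, 7 in Hspa5, 3 in Hspa9, 2 in Hsp90aa1 and 1 each in Hspa4 and Hspd1. Their median was 5 per gene, beside 2 over the 4869 protein-coding genes with a shared peak. Hspa8 and Hsp90ab1 ranked joint 233 of 4869 by number. This order depends on sequence that is not unique: counting only peaks on single-copy 20-nt sequence left 3 in Hspa8 and 7 each in Hsp90ab1, Hspa5 and Hsp90b1.

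Sequences under shared exon peaks with the most reads are shown first, for 6 of the 8 genes, as stretches that were found in both C2C12 libraries. The leading Hsp90ab1 peaks were wider than 1 bin and are not shown, nor are those of Hspa9. Each is 1 bin of 20 nt, the resolution of the peak caller, written 5′ to 3′ on the RNA strand from the mm9 genome, with T for U. None of those shown holds GGAC, the core of the m6A consensus, and so none has capitals, but the leading exon peak of Hspa9, with 9 and 7 reads, does hold it.
Hspa8 exon 4, chr9:40610821-40610840, + strand: gaccgttaccaacgctgtgg
Hspa5 exon 6, chr2:34630221-34630240, + strand: taaaccccgatgaggctgta
Hspa5 exon 4, chr2:34629341-34629360, + strand: gttacccatgcagttgttac
Hspa4 exon 19, chr11:53075141-53075160, - strand: tgccttctgatggcgacaag
Hsp90aa1 exon 9, chr12:111931021-111931040, - strand: gtctccgaaagcatggctta
Hsp90b1 exon 12, chr10:86157181-86157200, - strand: gtcttctcaccattcaactg
Hspd1 exon 2, chr1:55143701-55143720, - strand: ctcactcgggcctatgccaa

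GGAC was searched on the RNA strand of the 37 shared exon peaks of 1 bin, and 5 held it (13.5%, exact 95% interval 4.54% to 28.8%). Over all protein-coding genes 6.02% of 11198 such peaks held it, and 5.47% of 1317 exon bins of the 8 genes without a C2C12 peak, not matched by region, did. Both values lie inside the interval, so a difference was not detectable at this number of peaks. The longer GGACT, which contains GGAC, was in 1 of the 37 peaks (2.7%) and in 1.52% of those of all genes. With 20 nt added on each side, GGAC was in 24.3% of the 37 windows and in 21.8% of those of all genes. A match is a string of letters and not evidence of a methylated base. Of the 5 peaks, 3 were in Hsp90ab1, 1 in Hspa5 and 1 in Hspa9, and those of the first 2 genes are shown with GGAC in capitals.
Hspa5 5′UTR in exon 1, chr2:34627781-34627800, + strand: cctgttgctGGACtcctaag
Hsp90ab1 exon 3, chr17:45708521-45708540, - strand: tgacGGACccttctaagttg
Hsp90ab1 exon 3, chr17:45708441-45708460, - strand: ttggtGGACacaggcattgg
Hsp90ab1 exon 6, chr17:45707281-45707300, - strand: ctGGACcagaaacccggatg

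The base composition of the 37 peaks differed from that of exon bins of the same genes without a C2C12 peak. The bins came from all exon regions and were not matched to the peaks, which lay mainly in coding exons. Exons of the 8 genes held 17035 nt of coding sequence, 5045 nt of 3′UTR and 6017 nt of non-coding transcripts. The part of the region in this difference was not tested. C made up 28.8% of the bases in peaks and 20.1% in the other bins, and A made up 20.1% and 28% respectively. The peaks of all protein-coding genes showed a like composition, with 31.7% C and 20.3% A.

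Within the genes the shared peaks lay mainly in coding sequence. Of the 50, 42 were in coding exons (84%, interval 70.9% to 92.8%), 3 in 5′UTRs, 1 in a 3′UTR, 3 in exons of non-coding transcripts and 1 in an intron. Over all protein-coding genes 41.1% of 19491 shared peaks were in coding exons, 19.5% in 3′UTRs and 33.4% in introns. The interval of the 8 genes for 3′UTRs was 0.0506% to 10.6%, as for introns, and lay below both shares. Any exon held 98% (89.4% to 99.9%), against 66.6%. With exons of the longest coding transcript alone the share of the 8 genes was 92%, which was not recounted for all genes. The 8 genes are compact, with exons covering 28% of their length against 6.67% in all genes with a shared peak, so densities were compared as well. Coding exons held 2.47 shared peaks per kb in the 8 genes and 0.734 per kb in all genes with a shared peak. The exact 95% Poisson interval of the first value was 1.78 to 3.33 per kb. In 3′UTRs the densities were 0.198 and 0.429 per kb, and in introns 0.0127 and 0.0187 per kb. Each of these values for the 8 genes rests on 1 peak, with intervals of 0.00502 to 1.1 and 0.000321 to 0.0706 per kb that include the value of all genes. Of the 42 coding exon peaks, 11 were in Hspa8 and 13 in Hsp90ab1. All these intervals treat peaks as independent, and the 8 genes were chosen with earlier results of these data known. The contrasts with all genes are therefore no test.

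**Figure D2:**
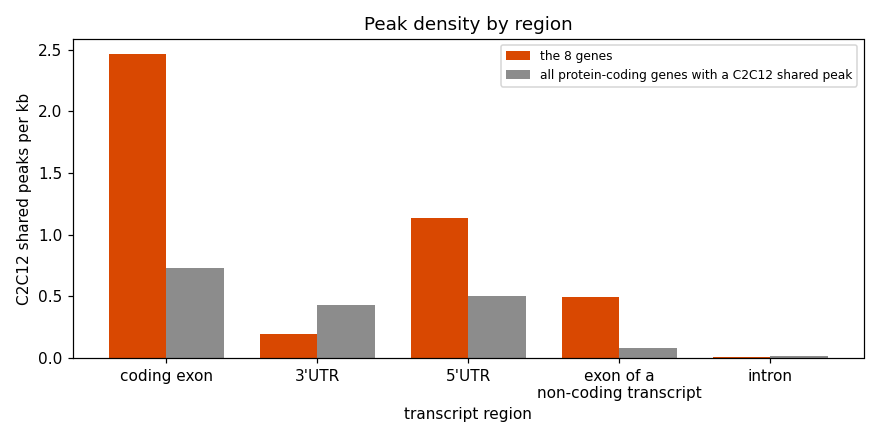
C2C12 shared peaks per kb (y axis) in 5 transcript regions (x axis), for the 8 genes together and for all 4869 protein-coding genes with a shared peak. Coding exons of the 8 genes stood at 2.47 per kb and those of all such genes at 0.734, and the 3′UTR value of the 8 genes rests on 1 peak.

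Hspa8 encodes the constitutive cytosolic HSP70 (HSC70), which also uncoats clathrin vesicles, and lies on chr9:40609067-40613283, + strand. It held 0 and 2 peaks in ASC B1 (T1 and T2), 4 and 6 in ASC B2, and 18 and 22 in the C2C12 libraries. Of its 14 shared peaks, 11 were in coding exons and 3 overlapped the snoRNA genes inside its introns, 1 of them by 3 nt only. With the snoRNA peaks counted as exonic, since non-coding transcripts cover them, the exon density was 3.37 shared peaks per kb, above that of 95.3% of the 4869 genes. The 11 coding exon peaks alone gave 2.65 per kb of the same length, the 4156 of 4217 nt that are exonic in any transcript. The coding sequence of its longest coding transcript is 1938 nt, so this value is not comparable with the density of coding exons above. Of the 11 peaks, 10 lay on sequence with more than 1 copy. Its strongest exon peak, in exon 4, had 15 and 16 reads per bin in C2C12 replicates 1 and 2 and none in ASCs, and covered 19 nt of the exon and 1 nt of the intron before it. A peak in the last coding exon had 19 and 9 reads in C2C12 and 9, 15 and 8 in ASC B1 T2, B2 T1 and B2 T2, and was not called in B1 T1. Another site, in exon 5, had 10 and 11 reads in C2C12 and 11 in ASC B2 T2 alone. The last 2 sites are shown because both cell types held them.
Hspa8 exon 9, chr9:40613101-40613120, + strand: aggtggcatgcctgggggaa
Hspa8 exon 5, chr9:40611261-40611280, + strand: aagagagctgtccgccgtct

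Many Hspa8 peaks lay on sequence that is not unique. The exact 20-nt sequence occurred more than once in the genome for 21 of its 22 coding exon sites, and for 10 of the 11 shared ones, with 2 to 11 copies. The exon 4 peak was the exception. For the 8 multi-copy shared peaks of 1 bin, 38 other copies were located: 22 outside annotated genes, 14 in the pseudogenes Gm8355 and Gm17431, the latter overlapped by the lincRNA Gm15459, and 1 each in Emr1 and Kcnq1. The exon 6 bin at chr9:40611821-40611840 had 16 and 9 reads in Hspa8. Copies of it were called with 8.5 and 11.5 reads in Gm8355 and with 8.5 in both replicates in Gm17431. Another copy of it, on chr14 outside annotated genes, was called with 8 and 8.67 reads. The exon 2 bin at chr9:40610041-40610060 had 11 and 9 reads in Hspa8. A copy of that bin on chr1, outside annotated genes, was called with more reads, 14 and 12. Of the copies of peaks of 1 bin, 4 were called in both replicates, and none had the reads of the Hspa8 peak in both. These copies do not start at the edge of a bin, so the same reads would be binned differently there. Unequal reads therefore cannot show whether the reads are the same. The authors placed a read at several positions where it matched equally well, so reads of these bins may not belong to Hspa8 alone. Whether whole reads, which can be longer than the bin, match at the other copies was not tested. Among all 50 shared peaks of the 8 genes, 28 had a single-copy sequence (56%, interval 41.3% to 70%). Over all protein-coding genes 77.7% of 19075 shared peaks did. Of the 22 multi-copy shared peaks of the 8 genes, 11 were in Hspa8, with the snoRNA peaks counted, and 7 in Hsp90ab1.

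The 3 snoRNA genes in Hspa8 introns are box C/D snoRNAs of the U14 family, which guide ribosomal RNA processing and methylation. They lie in introns 5, 6 and 8 of the longest coding transcript, and retained-intron transcripts of Hspa8 cover them as exons. Peaks on Snord14c had 9.5 and 19 reads per bin in C2C12 and 5 each in ASC B2 T1 and B2 T2. Peaks reaching Snord14d had 12 and up to 18 reads in C2C12 and 5 each in the same ASC libraries. However, the C2C12 peaks with 12 and 18 reads and the ASC B2 T1 peak covered only the first 3 nt of the snoRNA gene. Peaks on Snord14e had 12.3 and 10 reads in C2C12, and 5, 7 and 6 in ASC B1 T2, B2 T1 and B2 T2. Thus 8 of the 28 ASC peaks in the 8 genes overlapped these 3 snoRNAs. The first bin fully inside each snoRNA gene is shown, which is not always the bin with the most reads, with TGATGA, the usual C box, in capitals where the bin holds it.
Snord14c, chr9:40611681-40611700, + strand: attccaaaaccattcgtagt
Snord14d, chr9:40612081-40612100, + strand: ctgTGATGAtggattccaaa
Snord14e, chr9:40612841-40612860, + strand: gatgaatggtccaaacattc

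**Figure D3:**
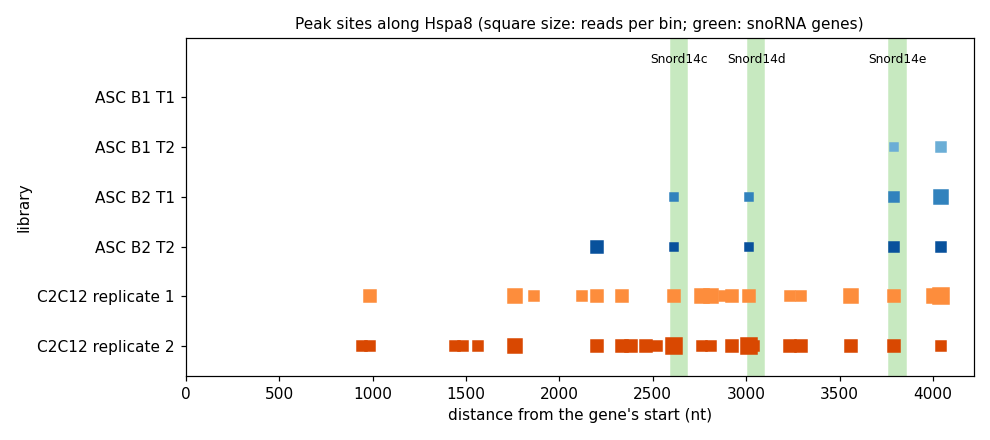
Peak sites along Hspa8, with distance from the gene's start in nt on the x axis and the 6 libraries on the y axis; square size follows reads per bin and green bands are the snoRNA genes. ASC sites sat on Snord14c, Snord14d and Snord14e and at 2 exon sites, while C2C12 sites ran through the gene.

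Hspa5 encodes BiP, the HSP70 of the endoplasmic reticulum and a sensor of the unfolded protein response, and lies on chr2:34627490-34632051, + strand. It held 0, 0, 1 and 3 peaks in the ASC libraries, and 16 and 14 in C2C12. All 7 shared peaks were in exons, 6 in coding exons and 1 in the 5′UTR, and all 7 had a single-copy sequence. The exon 6 peak had 27 reads in replicate 1 and 9 in replicate 2, a mean of 18 ± 12.7 (SD, n = 2). The exon 4 peak, with 12 and 11 reads, varied far less. Of the 4 ASC sites in Hspa5, 3 overlapped no C2C12 peak, and the other, in the 5′UTR, had 4 reads in ASC B2 T2 and 11 in C2C12 replicate 2. Each of the 3 lay in a bin directly beside a C2C12 peak. In exon 6 this was the peak with 27 and 9 reads. In exon 1 it was a peak with 12 reads in replicate 1, with an ASC site on each side.

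Hspa4 encodes an HSP110-type nucleotide exchange factor for HSP70 proteins and lies on chr11:53073316-53113959, - strand. It had no ASC peak, 3 and 6 C2C12 peaks, and 1 shared peak, in the last coding exon, with 8 and 6 reads. It is the longest of the 8 genes at 40644 nt, and its exon density was 0.181 per kb, below the median of 0.311 per kb over the 4869 genes. Hspd1, the mitochondrial chaperonin HSP60, lies on chr1:55134679-55145087, - strand, and likewise had no ASC peak. It held 2 and 1 C2C12 peaks, and its shared peak in exon 2 had 7 and 6 reads. The same 20 nt occur in the pseudogene Gm12141, where no C2C12 peak was called.

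Hsp90ab1 encodes the constitutive cytosolic HSP90 and lies on chr17:45704724-45710220, - strand. It held 1, 2, 1 and 2 peaks in the ASC libraries and 22 and 21 in C2C12. Its 14 shared peaks, 13 in coding exons and 1 in the 5′UTR, lay in 9 of its 11 exons, from position 51 to 2264 of an mRNA of 2520 nt. The exon density of 4.67 per kb was the highest of the 8 genes and above that of 97.2% of the 4869. The shared peaks had means over replicates of 6 to 9.25 reads per bin and a median of 7.75, where those of Hspa8 reached 15.5. Higher values were found in 1 replicate only, at neighbouring exon 2 sites with 16 reads in replicate 1 and 13 in replicate 2. The 5′UTR site had 9.33 and 8.67 reads in C2C12, and 5 and 6 in ASC B1 T2 and B2 T1. It was thus found in both biological replicates of ASCs, though in 1 technical replicate of each. Exon 4 and exon 7 sites were found in both C2C12 libraries and in 1 ASC library each, with 5 reads there.
Hsp90ab1 exon 4, chr17:45708001-45708020, - strand: agtatgcctgggagtcgtct
Hsp90ab1 exon 7, chr17:45706701-45706720, - strand: gggctcccttcgaccttttt

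Of the 14 Hsp90ab1 shared peaks, 7 had a single-copy sequence. Copies were located for the 4 others of 1 bin, and lay in the pseudogenes Gm6368 and Gm13498 or outside annotated genes. The 1-bin sequences were also compared between the 8 genes: of 153 bins, 1 of Hsp90ab1 recurred in Hsp90aa1 and 1 of Hspa4 in Hspd1. The Hspa4 bin lies in intron 13, and its sequence occurs 40708 times in the genome.

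Hsp90aa1 encodes the stress-inducible cytosolic HSP90 and lies on chr12:111928815-111940938, - strand. It held 0, 0, 0 and 1 peaks in the ASC libraries and 6 and 6 in C2C12, with 2 shared. The exon 9 peak had 7 and 12 reads, and its sequence recurs in the pseudogene Gm12346. The 5′UTR peak had 9 and 6 reads. Its exon density was 0.509 per kb, against 4.67 per kb for its paralog Hsp90ab1. Hsp90b1 encodes GRP94, the HSP90 of the endoplasmic reticulum, and lies on chr10:86152954-86168254, - strand. It had no ASC peak, and 12 and 11 in C2C12. Of its 8 shared peaks 7 were in coding exons and 1 in the 3′UTR, the only shared 3′UTR peak of the 8 genes, with 6 and 7 reads. The exon 12 peak had 8 and 12 reads, and 7 of the 8 shared peaks had a single-copy sequence. The gene overlaps Gm15344 and a miRNA gene on the same strand, and none of its shared peaks lies in either.

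**Figure D4:**
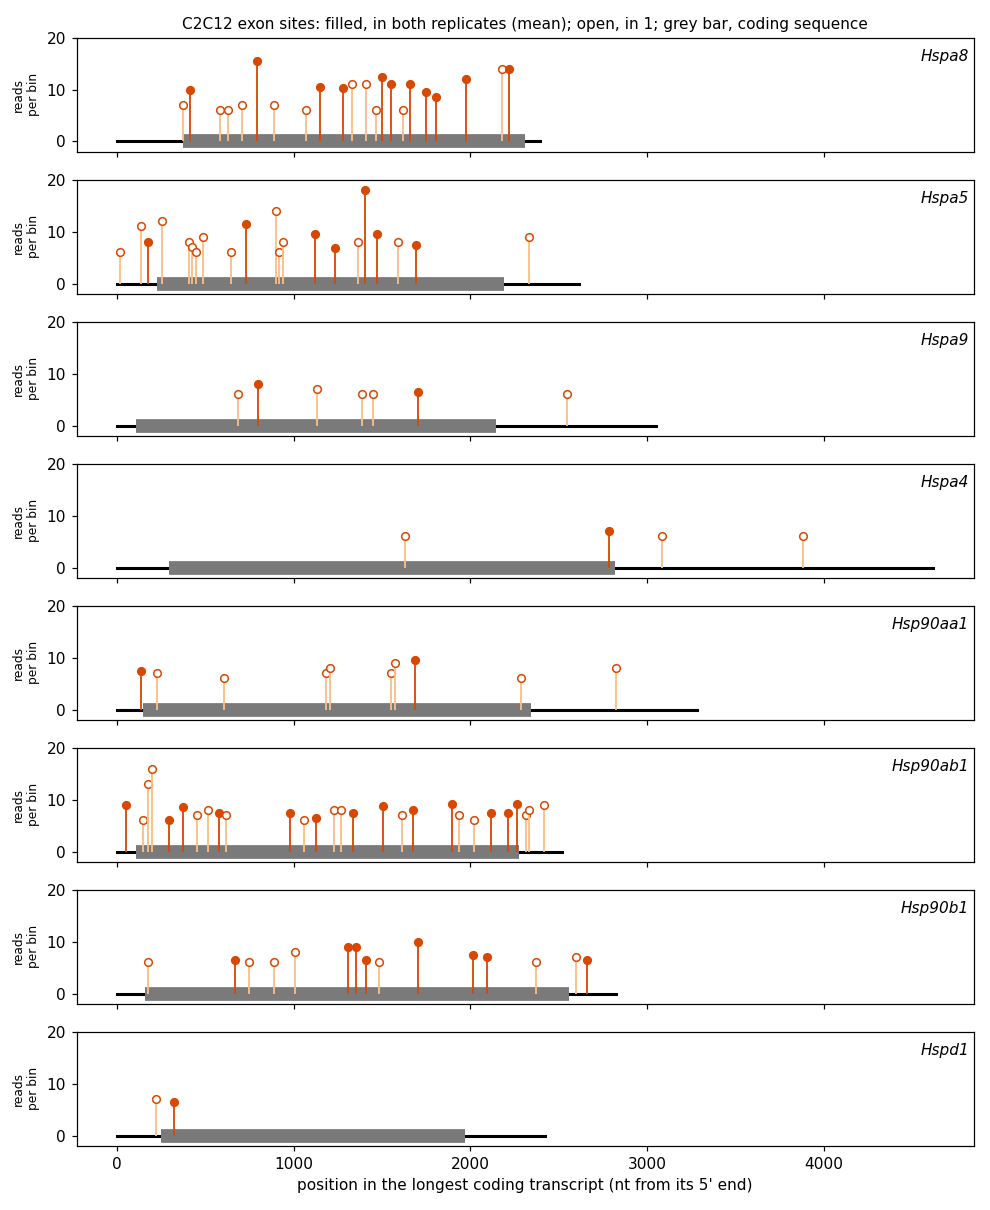
C2C12 exon sites along the longest coding transcript of each gene, with position from its 5′ end in nt on the x axis and reads per bin on the y axis; filled points were found in both replicates and open points in 1. Sites of Hsp90ab1 ran from position 51 to 2264 for those in both replicates, and Hspd1 held 2 sites.

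Over the 50 shared peaks the reads of the 2 C2C12 replicates were loosely related across peaks, with a Pearson r of 0.32 on log2 reads and a Spearman rho of 0.364, and 31 differed by at most 2 reads. Of the 85 replicate 1 peaks 50 were found again in replicate 2 (58.8%, interval 47.6% to 69.4%), beside 45.4% for all protein-coding genes. Peaks with 10 or more reads were found again in 14 of 18 cases, and those with fewer in 36 of 67 (77.8% and 53.7%). The shares over all protein-coding genes were 79.6% and 38.8%. The number of peaks per gene differed by at most 4 between them.

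**Figure D5:**
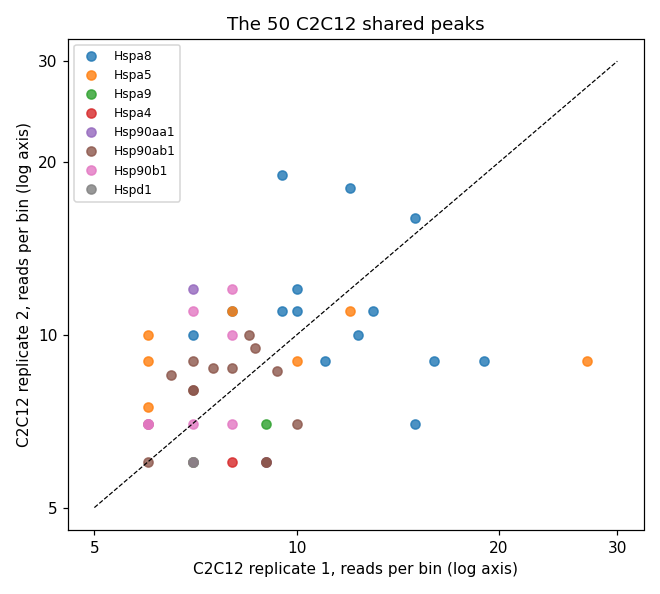
Reads per bin of the 50 C2C12 shared peaks in replicate 1 (x axis) and replicate 2 (y axis), both on log axes, coloured by gene, with a dashed line of equality. The Hspa5 exon 6 peak, at 27 and 9 reads, lies farthest to the right.

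At least 1 peak was present in 2, 3, 4 and 5 of the 8 genes in the ASC libraries, taken as B1 and then B2 with T1 before T2. The shares of all protein-coding genes in the same order were 7.8%, 9.95%, 9.05% and 18.5%. In C2C12 all 8 genes had a peak in each replicate, where 33% and 36.9% of all genes did. Of the 28 ASC peaks, 21 overlapped a C2C12 peak and 19 overlapped peaks of both C2C12 libraries (75% and 67.9%). Over all protein-coding genes 28.3% and 19.3% of 14711 ASC peaks did, and in both sets a site called in several libraries counts more than once. The 28 peaks of the 8 genes fell into 17 sites, of which 11 held a C2C12 peak and 3 lay on snoRNA genes. Of the 17, 6 were found in at least 2 ASC libraries and 1 in all 4. No count by site was made for all genes, and genes were not matched by their number of C2C12 peaks. By the rule that a peak must recur in both technical replicates of both biological replicates, 1 of the 8 genes had an ASC shared peak, where 2.45% of all genes did.

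That gene was Hspa9, which encodes mortalin, the mitochondrial HSP70, and lies on chr18:35097068-35114011, - strand. It held 1, 1, 1 and 2 ASC peaks, and 6 and 5 in C2C12, with 3 shared in C2C12. Its ASC shared peak, in intron 13, at chr18:35099781-35099800, had 7 and 7 reads in the B1 libraries, 6 and 5 in the B2 libraries and 7 and 6 in C2C12, so the reads barely differed between libraries of very different size. It is the only shared intron peak of the 8 genes, lies near a stretch of 10 or more G on the read strand (20 nt or closer), and its sequence occurs once more, in Prune2. The part of the G run in this peak was not tested. The strongest exon peak of Hspa9, in exon 7, had 9 and 7 reads in C2C12. The 2 SNORD63 copies in its introns held no peak.

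A list of 70 other chaperone and co-chaperone genes, also chosen with earlier results of these data known, was counted in the same way. Of these, 31 had a C2C12 shared peak (44.3%, interval 32.4% to 56.7%), beside 21.8% of all protein-coding genes, with 65 shared peaks in all and 46 of them in exons. Dnaja3, a mitochondrial HSP40, had the most with 8, all of them in introns, unlike the 8 genes above. Bag6 followed with 6, and Bag3, Dnajb6, Hspb1 and Ptges3 had 4 each. In ASCs 24 of the 70 had a peak in any library, where 25% of all protein-coding genes did, and 2 had a shared one, where 2.45% did. The genes whose peak numbers over the 6 libraries were most like those of Hspa8, by Euclidean distance of log2(peaks + 1), were Eif4g1 at 0.60, Rpl4 at 0.76 and Cdyl at 1.03.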

How the data were processed

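The authors trimmed reads with cutadapt 1.15, removed those matching pre-rRNA, aligned the rest to mm9 with Bowtie 1.2.3, keeping several positions per read, and called peaks in each library with Piranha. As deposited, the signal counts reads in a 20-nt bin without normalization, and a peak of several bins carries their mean. The authors' p-value comes from the peak caller without adjustment and served only as a filter. Depth is unknown, since the files list peaks only; the lowest signal listed was 4, 5 or 6 reads. Settings are described for ASCs, and none separately for C2C12.

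Peaks were assigned with GENCODE vM1 on NCBIM37 (mm9) in Python 3.11.15 with numpy 2.4.6, pysam 0.24.0, scipy 1.17.1, numba 0.67.0, matplotlib 3.10.9 and samtools 1.23.1. A peak took the class that covered most of it, and exons of any transcript counted. Of 178779 peaks, 1287 lay on sequence names not in the reference and none beyond a chromosome end. ASC shared peaks were T1 peaks overlapping T2 within B1 and B2, then B1 overlapping B2. Sequence copies are exact 20-nt matches on both strands. Values are counts and shares with exact 95% binomial intervals, and no test between groups was made, since the lists hold no counts outside peaks. The named genes were the 8 genes, their 2 shared peaks with most reads, every ASC site, snoRNAs and copies under them, and the 5 other chaperones with most shared peaks, ties included. The 8 genes and all lists were chosen with earlier results of these data known. The code was tested on simulated data of 400 genes. In all, 40 alternatives were listed and 3 added after seeing the data; leaving out each library in turn counts as 1 alternative but gives several values, so that 52 values were recomputed.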

Additional observations from a re-analysis of the deposited data

Results flagged for a closer look

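Among the 4 ASC libraries 1 library stood apart from the other 3 in 2 of the 8 genes. Hspa9 held 2 peaks in ASC B2 T2 and 1 in each other ASC library. Hsp90aa1 held 1 peak in ASC B2 T2 and none in the others. Where the other 3 libraries hold equal counts, as here, any gap is picked out, although chance picks out about 1 in 20 groups in general. The library ASC B2 T2 also listed the most peaks of the ASC libraries, 19448. The lowest signal listed in that library was 4 reads, against 5 in the other ASC libraries.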

How the results depend on the processing

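Of 52 values recomputed, 28 stayed within 1.5 times the reported count or inside the interval of the reported share, and 24 moved. At p of at most 0.0001 the C2C12 shared peaks of the 8 genes fell from 50 to 19, their exon share was 100%, ASC shared peaks went from 1 to 0, ASC peaks from 28 to 13, and genes with a C2C12 shared peak from 21.8% to 11.4%. At 0.00001 these were 6, 100%, 0, 6 and 6.12%. With single-copy peaks only they were 28, 100%, 0, 13 and 16.7%. Leaving out peaks on G runs gave an exon share of 100% and 0 ASC shared peaks. With exons of the longest coding transcript alone the exon share was 92%. Leaving out 1 C2C12 library leaves no sharing, so the other's own peaks were counted: 85 to 86 peaks, an exon share of 95.3% with either, and 33% to 36.9% of genes. Leaving out 1 ASC library gave 1 to 2 shared peaks and 14 to 26 peaks, the lowest without B2 T2 and the 2 shared without B1 T1. The alternatives chosen after seeing the data, at least 6 reads per bin and no snoRNA peaks, left 13 and 20 ASC peaks; without Hspa8, 36 C2C12 shared peaks remained. No paired analysis was possible because no result came from a test. Depth is unknown, and peaks of 4 to 6 reads are the smallest listed.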
